A study of Mus musculus with 20 samples.

Results

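The libraries described here are the 6 stimulated ones from the first 6 h of a mouse time course, chosen by their labels from 20 in all: 2, 3 and 6 h after addition of a cocktail, set against 15 min, 30 min and 1 h, which are called the first hour below. The cocktail held lipopolysaccharide (LPS), interleukin 4 (IL-4, labelled IL4) and transforming growth factor beta (TGFb). The untreated culture, with treatment labelled none, was sampled at the same times and is used for comparison (6 libraries). All samples carry the tissue label spleen, and poly-A libraries were made from them. No strain, age, sorting step or further agent is given in the sources used here. The design text names 1 mouse for each culture, and each library is a different time. Times therefore stand in for replicates, p-values measure the spread between times within a window, and a change with time cannot be told apart from a change with the handling of 1 animal's cells. The 2, 3 and 6 h libraries all came from sequencing lane 4, against lanes 3, 4 and 2 for 15 min, 30 min and 1 h.

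LPS is sensed by Toll-like receptor 4, which activates NF-kB and MAP kinases. IL-4 acts through STAT6 and TGFb through SMAD proteins, and in B cells the 3 signals together promote antibody class switching. Activated cells first transcribe immediate early genes, whose messenger RNAs are short-lived. Genes for growth, survival, adhesion and differentiation follow over hours.

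Markers of B cells were abundant: the 12 listed summed to 2015 to 2470 CPM (counts-per-million units) at 2 to 6 h, against 2662 to 2696 CPM in the first hour. Among them Cd22 had 366, 247 and 90.8 CPM at 2 to 6 h, against 459.6, 499 and 496 CPM in the first hour, and Cr2, a complement receptor of follicular B cells, was near 0 in all 6. Many markers of other spleen cells were at or near 0, but not all. T cell markers summed to 15.3 to 21.6 CPM at 2 to 6 h, against 22.1 to 23.9 CPM, with Cd2 at 0 (1 of 11) and Cd3e at no more than 0.102 CPM. Others of that list were detected at 2 to 6 h: Lck at 10.8, 8.06 and 9.87 CPM, Cd4 at 4.29, 2.70 and 1.49 CPM. Cd28 had 2.83, 2.28 and 4.46 CPM. NK cell markers summed to 10.2 to 16.8 CPM, against 17.01 to 17.9 CPM, with 3 of 7 at 0. Neutrophil, erythroid and platelet markers summed to no more than 1.22 CPM in any of the 6 libraries, with S100a8, Hbb-b1 and Pf4 at 0. Macrophage and monocyte markers summed to 68.4 to 245 CPM, against 113 to 156 CPM. Hmox1, a stress gene that is not particular to them, gave 191, 165 and 29.3 CPM of this at 2 to 6 h, and C1qb and C1qc were at 0. Csf1r had 27.2, 20.1 and 20.5 CPM at 2 to 6 h, Cd68 20.8, 18.6 and 15.6 CPM and Emr1 6.63, 4.75 and 2.84 CPM. Dendritic cell markers summed to 83.5 to 95.6 CPM, against 76.3 to 78.2 CPM. Most of this was Bst2, with 45.5, 48.1 and 64.0 CPM at 2 to 6 h, and Zbtb46, with 36.3, 26.5 and 21.5 CPM. Itgax, Siglech and Clec9a had no more than 0.590 CPM in any of the 6 libraries. Plasma cell markers summed to 867 to 941 CPM, against 999.9 to 1075 CPM, of which Igj, Mzb1 and Xbp1 gave nearly all, and stroma and endothelium markers to 6.19 to 10.3 CPM, against 13.7 to 15.8 CPM. What the T, NK, plasma and stroma markers contribute to the changes below was not tested, and no step that selects B cells is given in the sources used here. In bulk RNA, fewer cells of a type and less RNA per cell cannot be told apart. Depth was 46764835 to 51419538 counts at 2 to 6 h and 46731739 to 60918651 in the first hour, so that 3 counts, taken as the floor of detection, were 0.0464 to 0.0685 CPM (counting error only). Some genes that every cell uses, Psmb6 among them, are listed at 0, so a 0 is read here as a listing only.

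Between the first hour and 2 to 6 h about as many genes were higher as lower. Of 11446 genes tested with edgeR's quasi-likelihood test, 4243 (37.1%) passed an adjusted p of 0.05, 2198 higher (19.2%) and 2045 lower (17.9%). Only such genes are called higher or lower here, and the list counts below are to be set beside these shares. Falls were more often over 2-fold than rises: 642 genes (5.61%) were called over 2-fold lower and 339 (2.96%) over 2-fold higher. The lowest of the 3 later libraries lay above the highest of the first hour for 3286 genes (28.7%), and the reverse held for 3319 (29%). The count rested on single libraries: it was 1247 without 15 min, 686 without 30 min, 2666 without 1 h and 1825 without 3 h. Against 30 min alone, the only first-hour library of lane 4, the number called was 2 (2146 at an unadjusted p under 0.05). All 4243 genes kept their direction in every alternative in which they had a value, also within lane 4. They were chosen for their change in these same libraries, which the alternatives reuse, so a kept direction is largely built in. With library totals as the only scaling the median of all genes moved by -0.13 on the log2 scale, and 34% of calls were higher in place of 51.8%.

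Of the steps up to 6 h, those from 1 to 2 h and from 3 to 6 h held the most genes over 2-fold apart. Among 9561 genes with a mean of at least 5 CPM, 100 stood over 2-fold above their 1 h level at 2 h, and 229 over 2-fold below it. The next step, to 3 h, held 12 and 32, and that to 6 h held 186 and 192. Within the first hour the steps were small, with 10 higher and 0 lower from 15 to 30 min, and 19 higher and 6 lower from 30 min to 1 h. In the untreated culture (9581 genes) 38 genes went over 2-fold up and 90 down at 2 h. There 2 went up and 11 down at 3 h, then 89 up and 60 down at 6 h. Each step sets 1 library against another, without replicates. The steps differ in length, that from 3 to 6 h being the longest of those up to 6 h. In the stimulated culture the step from 1 to 2 h also goes from lane 2 to lane 4. What length or lane adds to these counts was not tested.

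**Figure D1:**
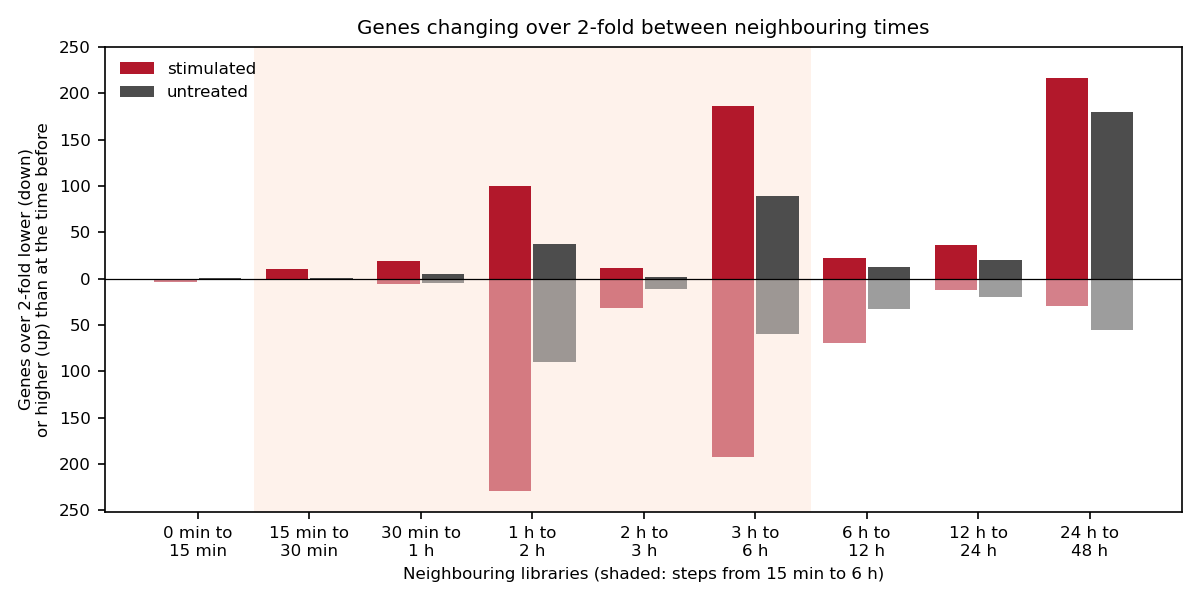
Numbers of genes (y axis) over 2-fold higher (bars up) or lower (bars down) at each time than at the time before (x axis), for the stimulated (red) and untreated (grey) culture; the shading marks the steps from 15 min to 6 h. The stimulated bars stand out at 1 to 2 h, with 100 higher and 229 lower, and at 3 to 6 h, with 186 higher and 192 lower; the step from 24 to 48 h, outside the times compared here, is large in both cultures.

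Immediate early genes led the falls. Of the 28 tested (4 of 32 listed did not pass the filter), 16 were called lower, 0 higher and 12 did not pass, with a median log2 fold change of -1.81 against 0.00 for all genes. Fos, which with Jun proteins forms AP-1 (chromosome 12, 85473890 to 85477273, GRCm38), had 1.26, 0.525 and 0.444 CPM at 2, 3 and 6 h, against 58.4, 48.2 and 17.9 CPM at 15 min, 30 min and 1 h. It was 55.4-fold lower at 2 to 6 h (log2 fold change -5.79 ± 0.61, adjusted p = 0.0042), and the windows were far apart. Fosb, a close relative of Fos, was 47.2-fold lower (log2 fold change -5.56 ± 0.55, adjusted p = 0.0042), and Junb, another AP-1 subunit, 3.20-fold lower. Egr1, a zinc finger transcription factor, had 4.50, 2.33 and 2.26 CPM at 2 to 6 h, against 108, 114 and 59.1 CPM in the first hour, and was 31.0-fold lower (log2 fold change -4.95 ± 0.39, adjusted p = 0.0042). The orphan nuclear receptors Nr4a1 and Nr4a3 differed in course from Fos, since both were highest at 1 h. Nr4a1 had 68.8, 28.9 and 7.03 CPM at 2 to 6 h, against 376, 664 and 841 CPM in the first hour (log2 fold change -4.17 ± 0.80, adjusted p = 0.011). Nr4a3 had 9.87, 2.83 and 0.621 CPM at 2 to 6 h, against 35.6, 51.6 and 82.5 CPM in the first hour (log2 fold change -3.67 ± 0.86, adjusted p = 0.018), and its call was lost without 15 min, 30 min, 1 h or 3 h. Cd69, an early activation marker of lymphocytes, had 81.6, 89.5 and 78.4 CPM at 2 to 6 h, against 347, 655 and 677 CPM in the first hour, and fell by 2.76 on the log2 scale. Members that did not pass were also mostly below 0, among them Dusp5 (-2.34; values in brackets after a gene are its log2 fold change), Fosl2 (-1.73) and Jun (-1.05). Leaving out single libraries gave 12 to 20 members called lower.

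Several of these genes were already high when the course began. At 0 min Fos was at 56.8 CPM in the stimulated and 40.9 CPM in the untreated library, and Egr1 at 98.6 and 83.6 CPM. In the untreated culture Fos fell as well, to 1.25, 1.02 and 0.677 CPM at 2 to 6 h, against 20.01, 12.6 and 3.92 CPM in the first hour. Cd69 and Nr4a1 were also above their 2 to 6 h levels at 0 min, Cd69 at 305 CPM in the stimulated and 235 CPM in the untreated library, and Nr4a1 at 339.8 and 390.0 CPM. With the cocktail both stood higher at 30 min and 1 h than at 0 or 15 min.

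The promoters of 3 genes that fell are shown for 2 elements that factors of the early response are known to bind. In RefSeq windows of GRCm38.p6 (250 bases before to 50 after a gene's start), TGACG, the core of the cyclic AMP response element, stood on either strand in 9 of the 13 lower immediate early genes with a window (69.2%) and in 36.9% of all tested genes with one. The CArG box, the core of the serum response element, stood in 2 of 13 (15.4%), Egr2 and Zfp36, against 1.47%. TGACG was also in 63.6% of the higher chaperone genes with a window and in 50% of the higher ribosome biogenesis genes. A match is a description and not a binding site. The stretches run 5′ to 3′ toward the gene's start, with matches in capitals, for Fos (chr12:85473786-85473865, plus strand, TGACG), Btg2 (chr1:134079277-134079356, minus strand, TGACG on both strands, overlapping as TGACGTCA) and Zfp36 (chr7:28379242-28379321, minus strand, CArG box).
Fos: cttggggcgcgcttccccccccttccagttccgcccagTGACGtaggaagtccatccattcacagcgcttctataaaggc
Btg2: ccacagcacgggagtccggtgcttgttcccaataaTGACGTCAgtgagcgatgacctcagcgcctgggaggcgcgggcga
Zfp36: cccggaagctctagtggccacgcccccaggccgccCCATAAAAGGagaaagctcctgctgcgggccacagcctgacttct

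Some regulators of messenger RNA decay fell. In that list 1 of 19 members tested were called higher, 8 lower and 10 did not pass, with a median of -0.22, and 3 of the members that fell, Zfp36, Zfp36l1 and Btg2, are also on the immediate early list. Btg2, which recruits the deadenylase that shortens poly-A tails (chromosome 1, 134075170 to 134079120), had 17.8, 18.1 and 20.8 CPM at 2, 3 and 6 h, against 164, 204 and 162 CPM at 15 min, 30 min and 1 h. The 3 later libraries were nearly level, and the change was the most precisely measured among the large ones (log2 fold change -3.23 ± 0.13, adjusted p = 0.00045). Zfp36, or tristetraprolin, which binds AU-rich elements in cytokine messenger RNAs, had 8.71, 6.92 and 6.28 CPM at 2 to 6 h, against 59.6, 87.4 and 50.5 CPM in the first hour (log2 fold change -3.18 ± 0.25, adjusted p = 0.004). The endonuclease gene Zc3h12a was 2.47-fold lower and its relative Zc3h12d 6.06-fold lower. Zfp36l1, a paralogue of Zfp36, fell less (-0.63), and Cnot1, the scaffold of the deadenylase complex, was slightly higher (0.24). The 1 higher call numbered 0 without 15 min, 0 without 30 min, 0 without 1 h, 0 without 3 h and 3 without 6 h. For MAP kinase feedback, 1 of 13 members tested were called higher, 4 lower and 8 did not pass. The phosphatases Dusp2 (-2.20), Dusp6 (-2.06), Dusp16 (-0.86) and Dusp10 (-0.82) were lower, while Spred2 had -1.23 and did not pass. These 4 calls numbered 2 without 30 min, and the 1 higher call 0 without 15 min, 0 without 30 min, 0 without 1 h, 0 without 3 h and 4 without 6 h.

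Genes of other kinds stood among the 12 largest falls. Plk2, a polo-like kinase and p53 target (chromosome 13, 110395046 to 110400844), had 31.2, 26.7 and 8.30 CPM at 2 to 6 h, against 460.5, 527 and 345 CPM in the first hour (log2 fold change -4.34 ± 0.50, adjusted p = 0.0044). Socs3, a feedback inhibitor of cytokine receptors, climbed through the first hour and then fell, with 4.21, 4.43 and 1.22 CPM at 2 to 6 h, against 10.4, 29.6 and 42.7 CPM in the first hour (log2 fold change -3.07 ± 0.64, adjusted p = 0.013). Chac1, a glutathione-degrading enzyme induced by amino acid stress, had 5.80, 14.7 and 5.28 CPM at 2 to 6 h, against 116, 75.6 and 30.8 CPM in the first hour and sank already within the first hour (log2 fold change -3.13 ± 0.60, adjusted p = 0.011). Osgin1, an oxidative stress gene, was 7.21-fold lower and Apold1 16.5-fold lower. Without 30 min the calls of Nr4a1, Nr4a3, Chac1, Socs3 and Osgin1 were lost.

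The largest rises were of genes with varied functions. Vcam1, an adhesion molecule that binds the integrin VLA-4 (chromosome 3, 116109949 to 116129688), went up step by step, with 1.06, 2.79 and 29.5 CPM at 2, 3 and 6 h, against 0, 0.0407 and 0.209 CPM at 15 min, 30 min and 1 h (log2 fold change 7.08 ± 1.70, adjusted p = 0.019). Its first-hour levels lay at or near the floor of detection and 6 h carries most of the later level, so the fitted size is uncertain. The test of its difference from the untreated culture did not pass (adjusted p = 0.15). Gja1, which encodes connexin 43 (chromosome 10, 56377330 to 56402513), had 15.2, 24.6 and 42.3 CPM at 2 to 6 h, against 3.52, 3.66 and 4.54 CPM in the first hour (log2 fold change 2.80 ± 0.38, adjusted p = 0.0057). Gpr15, a homing receptor, had 14.8, 24.8 and 54.3 CPM at 2 to 6 h, against 4.70, 4.98 and 5.74 CPM in the first hour (log2 fold change 2.60 ± 0.46, adjusted p = 0.0092). Mt2, a metallothionein that binds zinc, was 6.61-fold higher, and Efnb1, a membrane ligand of Eph receptors, 4.73-fold higher. Hoxd4, a homeobox gene, had 33.6, 32.8 and 20.7 CPM at 2 to 6 h, against 3.25, 3.76 and 11.05 CPM in the first hour (log2 fold change 2.26 ± 0.49, adjusted p = 0.015). Nol4l peaked and returned, with 65.2, 92.8 and 15.4 CPM at 2 to 6 h, against 13.0, 13.2 and 10.3 CPM in the first hour (log2 fold change 2.24 ± 0.58, adjusted p = 0.024), and was 4.72-fold higher over the window as a whole. Without 30 min the calls of Vcam1, Gpr15, Hsph1, Hoxd4 and Nol4l were lost. Without 15 min those of Vcam1, Hsph1, Hoxd4 and Nol4l were, without 1 h that of Nol4l, and without 3 h those of Hoxd4 and Nol4l.

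**Figure D2:**
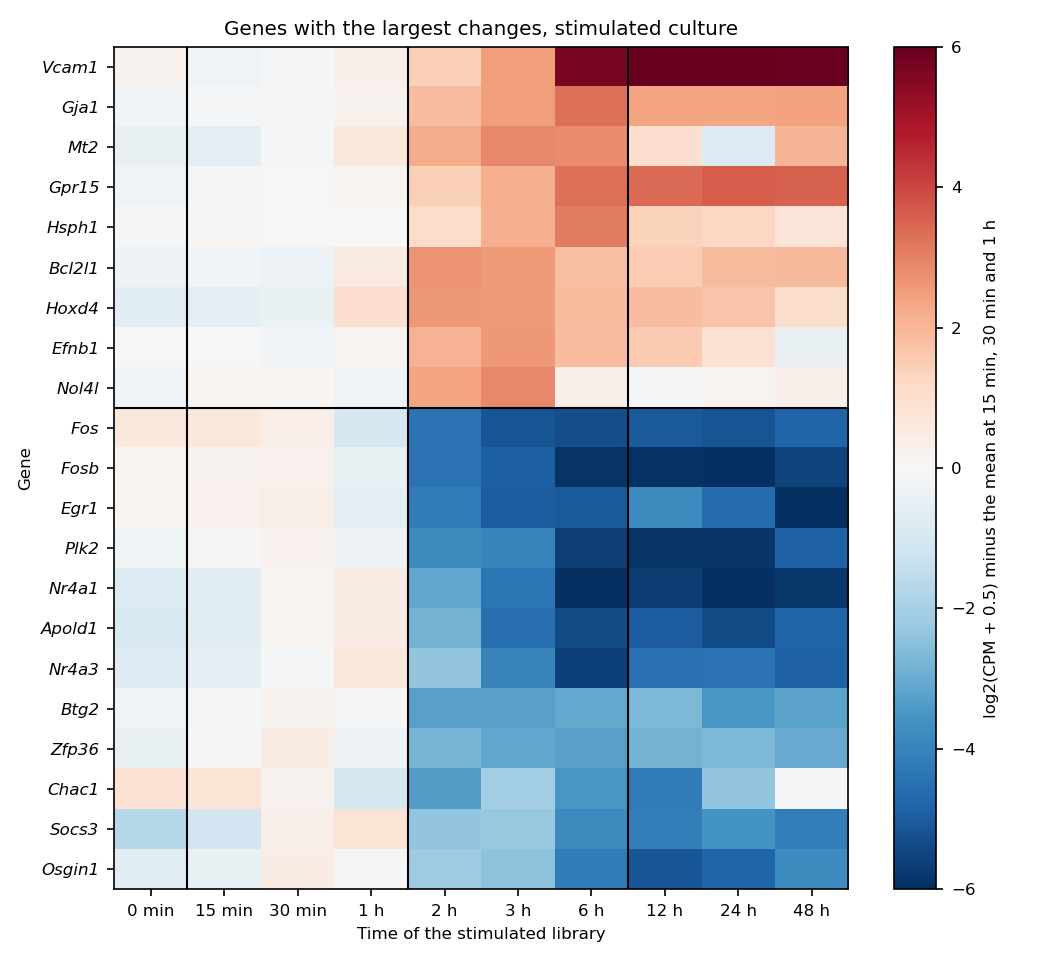
Levels of 9 genes among the 12 with the largest rises (above the horizontal line) and of the 12 with the largest falls (below it), as log2(CPM + 0.5) minus the mean at 15 min, 30 min and 1 h, at each of the 10 stimulated times (x axis); vertical lines bound the first hour and the 2 to 6 h window. Colours change between 1 h and 2 h in nearly every row, Nol4l returns by 6 h, and most falling genes are pale at 0 min, near their first-hour level; colours stop at 6 log2 units in either direction.

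NF-kB genes changed in both directions. In the list of subunits and inhibitors 6 of 16 members tested were called higher (37.5%), 2 lower (12.5%) and 8 did not pass. The lower share lay below the 17.9% of all genes. The precursor subunits Nfkb1 and Nfkb2 rose: Nfkb1 had 669, 729.6 and 523 CPM at 2 to 6 h, against 279.6, 280.2 and 326 CPM in the first hour (log2 fold change 1.11 ± 0.13, adjusted p = 0.0045), and Nfkb2 was 2.03-fold higher. Rel, the c-Rel subunit, fell after a peak at 1 h, with 145, 144 and 79.96 CPM at 2 to 6 h, against 208, 303 and 482 CPM in the first hour (log2 fold change -1.43 ± 0.35, adjusted p = 0.02), as did the nuclear inhibitor Nfkbid (-1.21). Among downstream genes, Traf1, an adaptor of TNF receptors, had 101, 131 and 147 CPM at 2 to 6 h, against 30.8, 32.9 and 54.4 CPM in the first hour (log2 fold change 1.68 ± 0.25, adjusted p = 0.0067), while Cflar, which blocks caspase activation at death receptors, was 1.87-fold higher. The inhibitor genes Nfkbie (0.51) and Nfkbib (0.50) rose. The 6 higher calls numbered 3 without 30 min, and the 2 lower calls were 0 without 30 min, 1 h or 3 h.

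Of the IL-4 and cytokine signalling list, 7 of 18 members tested were called higher (38.9%), 3 lower (16.7%) and 8 did not pass. The lower share was near the 17.9% of all genes. Ccl22, a chemokine induced by IL-4, had 4922, 6115 and 7164 CPM at 2, 3 and 6 h, against 1340.3, 1386 and 1989 CPM at 15 min, 30 min and 1 h, so that each later library exceeded every earlier one (log2 fold change 1.94 ± 0.20, adjusted p = 0.0042). Stat5a, a transducer of cytokine signals (chromosome 11, 100859351 to 100885169), was level in the first hour and then climbed, with 83.8, 104 and 135 CPM at 2 to 6 h, against 33.0, 32.7 and 34.0 CPM in the first hour (log2 fold change 1.69 ± 0.18, adjusted p = 0.0042). Its relatives Stat3 (0.82) and Stat5b (0.55) rose less, and Stat6, the IL-4 transducer itself, had 0.04 and did not pass. Fcer2a, the low-affinity IgE receptor, was low throughout, with 2.38, 3.31 and 5.52 CPM at 2 to 6 h, against 0.896, 0.915 and 1.41 CPM in the first hour (log2 fold change 1.79 ± 0.37, adjusted p = 0.013). Ciita, the master regulator of MHC class II genes, had 254, 290.3 and 426 CPM at 2 to 6 h, against 166, 158 and 135 CPM in the first hour. Below the first hour were Socs3 (-3.07), the kinase Pim2 (-1.22) and Nfil3 (-0.89), an IL-4 responsive transcription factor. The median was 0.09, or -0.04 with library totals as the only scaling. The 7 higher calls numbered 3 without 15 min and 2 without 30 min, and the 3 lower ones 1 without 15 min, 0 without 30 min and 1 without 3 h.

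In the TGFb list 3 of 18 members tested were called higher, 3 lower and 12 did not pass, shares near the 19.2% and 17.9% of all genes. The median was 0.12, or -0.01 with library totals as the only scaling. Tgfbr1, the type I receptor, peaked at 3 h, with 498, 641 and 290.4 CPM at 2 to 6 h, against 169.9, 178 and 209 CPM in the first hour (log2 fold change 1.35 ± 0.27, adjusted p = 0.012). Ski, a repressor of SMAD proteins, was 2.504-fold higher, but its windows overlapped. It had 145.7, 132.7 and 52.8 CPM at 2 to 6 h, against 38.5, 39.4 and 53.6 CPM in the first hour. The ligand gene Tgfb1 rose by less (0.62). The corepressors Tgif1 (-1.34) and Tgif2 (-1.07) fell, as did Bcl2l11 (-0.97), a cell death gene that TGFb can induce. The inhibitory SMAD gene Smad7 had -0.26 and did not pass. The higher calls numbered 1 without 15 min, 0 without 30 min and 7 without 6 h, and the lower ones 5 without 2 h.

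Some surface molecules of activated B cells rose. Of the activation list, 5 of 15 members tested were called higher (33.3%), 2 lower (13.3%) and 8 did not pass. The lower share lay below the 17.9% of all genes. Cd86, a costimulatory ligand, had 265, 336 and 306 CPM at 2 to 6 h, against 99.4, 98.5 and 120.3 CPM in the first hour (log2 fold change 1.503 ± 0.13, adjusted p = 0.0042), and Cd40, the receptor for T cell help, 126, 149 and 210.4 CPM at 2 to 6 h, against 43.0, 42.6 and 51.6 CPM in the first hour (log2 fold change 1.82 ± 0.20, adjusted p = 0.0044). Cd44, an adhesion receptor, rose (0.76), as did Tnfrsf13c (0.53), the BAFF receptor. Icosl had 5.53, 5.597 and 22.1 CPM at 2 to 6 h, against 3.83, 3.33 and 3.35 CPM in the first hour and did not pass (adjusted p = 0.056). Cd38 (-1.73) and Cd69 (-2.76) fell. The 5 higher calls numbered 2 without 15 min, 2 without 30 min and 2 without 3 h, and the 2 lower ones 1 without 15 min, 1 without 30 min, 1 without 1 h, 1 without 3 h and 4 without 6 h.

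Most homing and quiescence genes fell. Of them 1 of 17 members tested were called higher, 10 lower and 6 did not pass, and their median log2 fold change was -0.56. Foxo1 and Foxo3, transcription factors that hold lymphocytes at rest, had log2 fold changes of -1.33 and -1.27. Foxo1 itself had 70.5, 54.7 and 65.3 CPM at 2 to 6 h, against 164, 157 and 155 CPM in the first hour (log2 fold change -1.33 ± 0.11, adjusted p = 0.0042). S1pr1, the receptor for exit from lymphoid tissue, had 14.7, 14.2 and 15.5 CPM at 2 to 6 h, against 51.6, 36.5 and 23.2 CPM in the first hour, and its level sank already within the first hour (log2 fold change -1.33 ± 0.27, adjusted p = 0.013). Il7r (-1.65), Pik3ip1 (-1.39), an inhibitor of PI3 kinase, and Cdkn1b (-1.08), the cell cycle inhibitor p27, fell as well. Cxcr4 was the 1 member called higher (0.41), and Gpr183, an oxysterol receptor that guides B cell migration, peaked at 2 h and did not pass (1.30). The 10 lower calls numbered 5 without 15 min, 3 without 30 min and 4 without 3 h, and the 1 higher call 0 without 15 min, 0 without 30 min, 0 without 3 h and 3 without 6 h.

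B lineage regulators fell in part. In that list 0 of 17 members tested were called higher, 8 lower and 9 did not pass, with a median of -0.31. Irf8 had 109.8, 64.4 and 59.2 CPM at 2 to 6 h, against 246, 220.0 and 200.5 CPM in the first hour (log2 fold change -1.52 ± 0.24, adjusted p = 0.0074). Prdm1, the plasma cell regulator Blimp-1, had 16.5, 13.1 and 6.99 CPM at 2 to 6 h, against 26.7, 32.7 and 26.0 CPM in the first hour (log2 fold change -1.23 ± 0.30, adjusted p = 0.02). Pax5, which keeps B cell identity, fell by less (-0.57), as did Pou2af1 (-0.61), Xbp1 (-0.58) and Ikzf1 (-0.36). The 8 lower calls numbered 1 without 15 min, 1 without 30 min and 2 without 3 h, and the higher calls, 0 in all, 1 without 1 h and 2 without 6 h. Among class switching factors 10 of 21 members tested were called higher (47.6%), 3 lower (14.3%) and 8 did not pass. The lower share lay below the 17.9% of all genes. Apex2 (0.78), Apex1 (0.72) and Ung (0.58), enzymes of uracil and abasic site repair, were higher, and the end joining genes Lig4 (-1.23), Xrcc4 (-0.59) and Prkdc (-0.58) lower. The 10 higher calls numbered 1 without 15 min, 0 without 30 min, 3 without 1 h and 2 without 3 h, and the 3 lower ones 1 without 15 min, 1 without 30 min, 1 without 1 h and 1 without 3 h. Scaling by library totals alone gave 5 higher and 5 lower.

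Genes of ribosome making rose broadly and by small amounts. Of 38 ribosome biogenesis genes 30 were called higher, 0 lower and 8 did not pass, with a median of 0.53 and 33 of 38 with windows that did not overlap (28.7% of all genes). Ncl, which encodes nucleolin, had 5625, 6614 and 7108 CPM at 2 to 6 h, against 3559.9, 3726 and 4251 CPM in the first hour (log2 fold change 0.74 ± 0.10, adjusted p = 0.006). Utp20 was 2.40-fold higher, Rrp9 2.07-fold higher and Pno1 1.96-fold higher, all 3 of them processing factors of the small subunit. The 30 calls numbered 15 without 15 min and 5 without 30 min. Of 28 cytosolic ribosomal protein genes 0 were called higher and 0 lower, and their median was 0.04, or -0.08 with library totals as the only scaling. In translation 8 of 27 members tested were called higher (29.6%), 4 lower (14.8%) and 15 did not pass. The lower share lay below the 17.9% of all genes. The helicase Eif4a1 (0.74) and the cap-binding factor Eif4e (0.58) rose, while the aminoacyl-tRNA synthetases Aars (-0.71), Cars (-0.71) and Iars (-0.58) fell and Hars (0.36) and Rars (0.36) rose. With library totals as the only scaling the lower calls there numbered 11. The 8 higher calls numbered 2 without 15 min, 2 without 30 min and 4 without 3 h, and the 4 lower ones 1 without 15 min, 1 without 30 min, 9 without 2 h, 1 without 3 h and 10 without 6 h.

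For nucleotide synthesis, 15 of 22 members tested were called higher, 0 lower and 7 did not pass, with a median of 0.60. Rrm2, a subunit of ribonucleotide reductase, had 317, 396 and 219 CPM at 2 to 6 h, against 117, 127 and 153 CPM in the first hour (log2 fold change 1.22 ± 0.22, adjusted p = 0.0092), and Tyms, thymidylate synthase, was 1.95-fold higher. Cad, which begins pyrimidine synthesis, had 214, 273 and 416 CPM at 2 to 6 h, against 149, 154 and 169.7 CPM in the first hour (log2 fold change 0.93 ± 0.23, adjusted p = 0.022). The 15 calls numbered 6 without 15 min, 2 without 30 min and 9 without 3 h. Of proteasome subunits 19 of 24 tested were called higher and 0 lower, with a median of 0.53. The windows did not overlap, with 2 to 6 h higher, for 23 of 24 (28.7% of all genes). Psmc4, an ATPase of the cap, had 129.7, 156 and 207 CPM at 2 to 6 h, against 75.4, 78.8 and 93.5 CPM in the first hour (log2 fold change 0.99 ± 0.18, adjusted p = 0.01), and Psmd1 was 1.93-fold higher. These 19 calls numbered 1 without 15 min, 1 without 30 min, 10 without 1 h and 7 without 3 h. Scaling by library totals alone gave 13.

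Chaperones stood among the larger rises. Of 20 cytosolic and mitochondrial chaperone genes tested 14 were called higher, 0 lower and 6 did not pass, with a median of 0.83. Hsph1, a large HSP110 chaperone, had 202, 431 and 819.7 CPM at 2, 3 and 6 h, against 97.0, 90.9 and 93.6 CPM at 15 min, 30 min and 1 h and climbed at each later time (log2 fold change 2.36 ± 0.46, adjusted p = 0.011). Hspa8, the constitutive HSP70, had 2829.7, 4181 and 6562 CPM at 2 to 6 h, against 1017, 1163 and 1451 CPM in the first hour (log2 fold change 1.90 ± 0.30, adjusted p = 0.0076), and its cochaperone Dnaja1 206, 358 and 485 CPM at 2 to 6 h, against 90.5, 97.9 and 106 CPM in the first hour (log2 fold change 1.83 ± 0.29, adjusted p = 0.0074). Hsp90aa1 was 2.44-fold higher, and the mitochondrial Hspd1 2.20-fold higher. Hspd1 lies beside Hspe1, with which it is known to share a bidirectional promoter. The 14 calls numbered 3 without 15 min, 2 without 30 min and 9 without 3 h. Heat shock element cores, GAANNTTC, stood in 6 of the 11 higher genes with a promoter window (54.5%), against 6.85% of tested genes. They are capitalised here for Dnaja1 (chr4:40722308-40722387, plus strand) and Hspd1 (chr1:55088028-55088107, minus strand), 5′ to 3′ toward each gene's start.
Dnaja1: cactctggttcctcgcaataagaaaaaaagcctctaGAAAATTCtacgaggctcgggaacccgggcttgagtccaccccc
Hspd1: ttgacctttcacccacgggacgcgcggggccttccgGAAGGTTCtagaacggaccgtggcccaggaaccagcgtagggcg

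Most genes of protein folding in the endoplasmic reticulum rose, and 5 fell. In that list 15 of 22 members tested were called higher (68.2%), 5 lower (22.7%, against 17.9% of all genes) and 2 did not pass. Calr (0.94) and Pdia3 (0.95), which fold glycoproteins, and Sdf2l1 (1.17) rose, and Hspa5, the HSP70 of the compartment, had 2881, 3399 and 2757 CPM at 2 to 6 h, against 1621, 1737 and 1996 CPM in the first hour (log2 fold change 0.75 ± 0.11, adjusted p = 0.006). Ern1, the sensor IRE1, rose (1.07). Lower were Dnajb9 (-1.29), Herpud1 (-1.27), Atf6 (-0.66), Sel1l (-0.61) and Xbp1, and Herpud1 and Sel1l act in the degradation of misfolded proteins. The 15 higher calls numbered 6 without 30 min, and the 5 lower ones 1 without 15 min, 0 without 30 min, 3 without 1 h and 2 without 3 h.

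Cholesterol and fatty acid synthesis had the highest median of the lists, 1.05. In it 17 of 26 members tested were called higher, 1 lower and 8 did not pass. Hmgcs1, an early enzyme of the pathway, had 231, 306 and 532 CPM at 2 to 6 h, against 91.3, 94.5 and 113 CPM in the first hour (log2 fold change 1.83 ± 0.30, adjusted p = 0.0079). Idi1, which makes dimethylallyl diphosphate, was 3.96-fold higher. Fasn, fatty acid synthase, was 2.55-fold higher. Abca1, which exports cholesterol, was the 1 member called lower (-1.07). Most of these genes were highest at 6 h, and Lss (1.20) and Mvk (1.09), whose 2 and 3 h levels were far below that of 6 h, did not pass. The 17 calls numbered 7 without 15 min, 6 without 30 min and 10 without 3 h, and the 1 lower call 0 without 15 min, 0 without 30 min, 0 without 1 h and 0 without 3 h. The sterol regulatory element TCACNCCAC stood in 1 of 9 higher genes with a window, Hmgcs1 (11.1%), and in 1.44% of tested genes. It also stood in 1 of 11 higher chaperone genes with a window, Fkbp4 (9.09%). In Hmgcs1 it lies within chr13:119690178-119690257, plus strand, shown with the element in capitals.
Hmgcs1: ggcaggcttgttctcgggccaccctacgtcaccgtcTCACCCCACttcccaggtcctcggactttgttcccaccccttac

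Of glycolysis and hypoxia genes 12 of 23 members tested were called higher (52.2%), 4 lower (17.4%) and 7 did not pass. The lower share was near the 17.9% of all genes. Ldha, lactate dehydrogenase, had 755, 892 and 1118 CPM at 2 to 6 h, against 453, 487 and 546 CPM in the first hour (log2 fold change 0.89 ± 0.15, adjusted p = 0.0085), and Pfkfb3 (0.84), Pgam1 (0.75) and Tpi1 (0.70) rose. Vegfa, a secreted growth factor, had 36.3, 26.4 and 10.6 CPM at 2 to 6 h, against 113, 131 and 119 CPM in the first hour (log2 fold change -2.32 ± 0.40, adjusted p = 0.0088), and Slc2a3 (-1.07), a glucose transporter, was lower too. The 12 higher calls numbered 4 without 15 min, 1 without 30 min and 5 without 3 h, and the 4 lower ones 2 without 15 min, 2 without 30 min and 2 without 3 h. For the nuclear-encoded respiratory chain 9 of 26 members tested were called higher, 0 lower and 17 did not pass, led by Cycs (0.88), cytochrome c. Its median of 0.19 became 0.07 with library totals as the only scaling, where 2 members were called higher. Leaving out a library gave 1 without 15 min, 0 without 30 min, 2 without 1 h and 2 without 3 h.

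Part of the G1 and replication genes rose, and mitotic genes mostly did not pass. Of the G1 list 9 of 20 members tested were called higher (45%), 4 lower (20%) and 7 did not pass. The lower share was near the 17.9% of all genes. Ccne2, an S phase cyclin, had 75.1, 96.4 and 35.1 CPM at 2 to 6 h, against 16.5, 15.9 and 17.1 CPM in the first hour (log2 fold change 2.05 ± 0.34, adjusted p = 0.0079), and Ccne1 107, 149.8 and 74.2 CPM at 2 to 6 h, against 45.5, 46.3 and 47.6 CPM in the first hour. Both peaked at 3 h and were lower again at 6 h. The phosphatase Cdc25a (0.91) rose, Ccnd2 (0.39) and Cdk6 (0.39) by less, and the retinoblastoma relative Rbl2 (-1.18), Cdkn1b (-1.08), E2f2 (-0.90) and Rb1 (-0.80) fell. The 9 higher calls numbered 3 without 15 min, 1 without 30 min and 5 without 3 h, and the 4 lower ones 2 without 15 min, 2 without 30 min and 2 without 3 h. Of replication and mitosis genes 13 of 30 members tested were called higher, 0 lower and 17 did not pass. The replication genes Mcm2 to Mcm7 were among those called, with Mcm7 at 243, 303 and 305 CPM at 2 to 6 h, against 142, 151 and 168 CPM in the first hour (log2 fold change 0.87 ± 0.12, adjusted p = 0.0057), as was Pcna (0.91). Of mitotic genes Cdk1 (0.77) and Ccna2 (0.75) were called. These 13 calls numbered 6 without 15 min and 2 without 30 min, and without 6 h 8 members were called lower.

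Survival genes changed in opposite directions. In the Bcl-2 family 5 of 14 members tested were called higher, 4 lower and 5 did not pass, with a median of 0.11, or -0.01 with library totals as the only scaling. Bcl2l1, which encodes the anti-apoptotic Bcl-xL (chromosome 2, 152780668 to 152831728), had 277, 248 and 146 CPM at 2, 3 and 6 h, against 36.8, 32.5 and 61.4 CPM at 15 min, 30 min and 1 h, highest at 2 h (log2 fold change 2.35 ± 0.32, adjusted p = 0.0057). The anti-apoptotic genes Bcl2 (-0.98) and Mcl1 (-0.97) fell, as did the pro-apoptotic Bbc3 (-1.52) and Bcl2l11 (-0.97). Bcl2a1a, Bcl2a1b and Bcl2a1d rose by 0.62 to 0.78, but they are near-identical copies whose reads the counting may have split. The 5 higher calls numbered 2 without 15 min, 1 without 30 min and 3 without 3 h, and the 4 lower ones 2 without 30 min and 2 without 3 h.

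**Figure D3:**
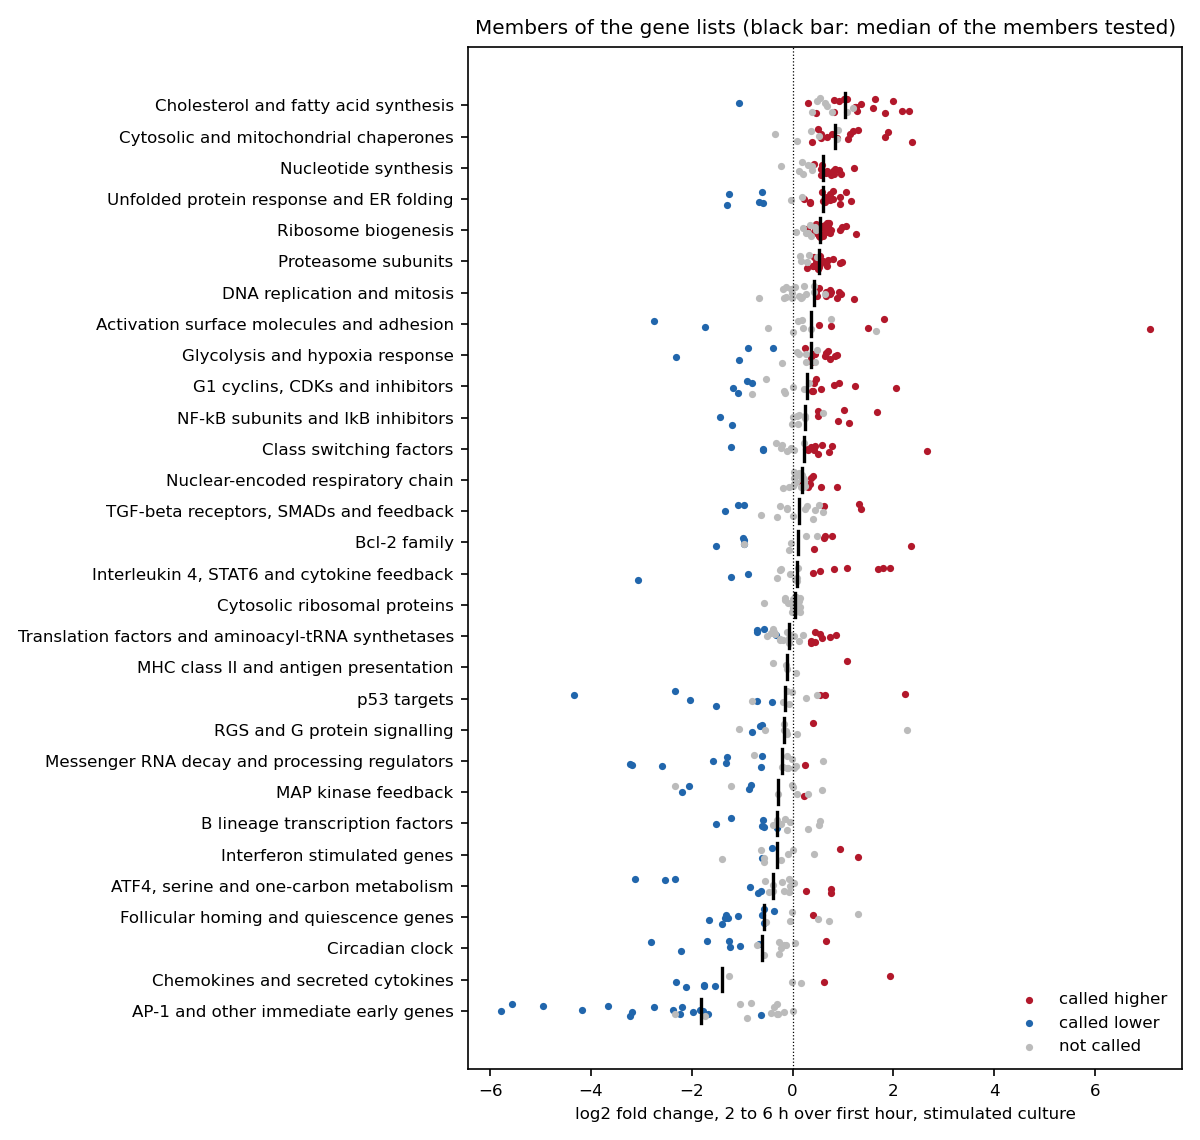
Log2 fold change of 2 to 6 h over the first hour in the stimulated culture (x axis) for each tested member of 30 gene lists (y axis, ordered by median); red and blue points passed the test, grey ones did not, and black bars are medians. Cholesterol synthesis has the highest median (1.05) and immediate early genes the lowest (-1.81), and lists such as that of the Bcl-2 family hold both red and blue points.

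The secreted factors that could be tested fell more often than they rose, but 10 of 20 listed did not pass the filter. Tnf, Lta and Ltb are listed at 0 in all 6 libraries. Of the chemokine and cytokine list 2 of 10 members tested were called higher (20%), 5 lower (50%) and 3 did not pass. The higher share was near the 19.2% of all genes, and Ccl22 and Tgfb1 were the 2 that rose. Il10, an anti-inflammatory cytokine, climbed to 1 h and then dropped, with 46.5, 31.7 and 32.6 CPM at 2 to 6 h, against 92.9, 118 and 161 CPM in the first hour (log2 fold change -1.75 ± 0.24, adjusted p = 0.0057). Ccl3, a chemokine for monocytes and lymphocytes, had 3.01, 2.26 and 3.504 CPM at 2 to 6 h, against 12.3, 14.2 and 11.2 CPM in the first hour (log2 fold change -2.11 ± 0.21, adjusted p = 0.0042), and Tnfsf9, the ligand 4-1BBL, was 2.93-fold lower. The 5 lower calls numbered 3 without 15 min, 3 without 30 min and 3 without 3 h, and the 2 higher ones 1 without 30 min. Amino acid stress genes fell in part: in the ATF4 list 3 of 19 members tested were called higher (15.8%), 6 lower (31.6%) and 10 did not pass. The higher share lay below the 19.2% of all genes. Trib3 had 43.0, 23.4 and 8.32 CPM at 2 to 6 h, against 160.2, 145 and 123 CPM in the first hour (log2 fold change -2.53 ± 0.53, adjusted p = 0.013) and Sesn2 was 5.06-fold lower, while the folate enzymes Shmt1 (0.77) and Mthfd1 (0.77) rose. The 6 lower calls numbered 3 without 30 min, and the 3 higher ones 0 without 15 min, 0 without 30 min, 0 without 1 h and 0 without 3 h. Scaling by library totals alone gave 11 lower and 2 higher.

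Much of this was shared with the untreated culture. Of the 2198 genes higher in the stimulated culture 1579 (71.8%) were also called higher over the same times without the cocktail, and of the 2045 lower 1436 (70.2%) were also lower. These were 73.3% and 68.4% of the genes called higher and lower in the untreated culture among those tested here. In the untreated fit 2201 of 11597 genes (19%) were higher and 2126 (18.3%) lower. Hsph1 in the untreated culture had 282, 529 and 574 CPM at 2 to 6 h, against 103, 98.3 and 120.4 CPM in the first hour (log2 fold change 2.10), and Hmgcs1 225, 308 and 485 CPM at 2 to 6 h, against 161, 98.4 and 142 CPM in the first hour (1.34). Nr4a3 fell there by 4.07 on the log2 scale. The difference between the cultures was tested as the change with the cocktail minus the change without it, with libraries of the same time set beside each other (12 libraries, 11843 genes). It passed for 1582 genes (13.4%), 908 above 0 (7.67%) and 674 below (5.69%), or 555 above and 1005 below with library totals as the only scaling. This count was 386 without 15 min, 351 without 30 min, 950 without 1 h and 474 without 3 h. It was 31 without the time term and 0 with lane in its place (edgeR; 275 at an unadjusted p under 0.05). Each culture came from its own animal, so treatment and animal cannot be told apart. Untreated libraries came from lanes 1, 3 and 1 in the first hour. At 2 to 6 h they came from lanes 2, 3 and 3, while the stimulated ones all came from lane 4. Lane can thus not be fully told apart from treatment and window. With lane as a term, all 16 genes named for their difference lost their call.

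**Figure D4:**
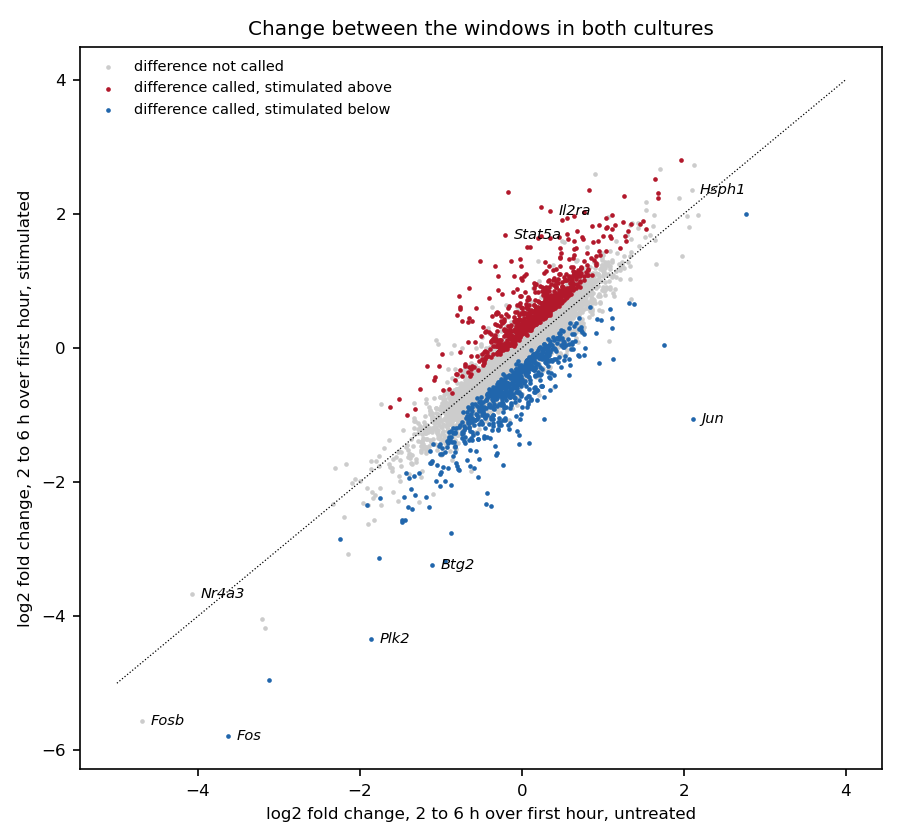
Log2 fold change of 2 to 6 h over the first hour for 9569 genes with a mean of at least 5 CPM, in the stimulated (y axis) against the untreated culture (x axis); coloured genes passed the test of the difference, and the dotted line marks equal change. Most points lie near the line, Stat5a and Il2ra lie above it, and Plk2, Btg2 and Jun below it.

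Genes whose change was more positive with the cocktail included signal transducers and survival genes. Stat5a in the untreated culture had 26.5, 27.1 and 29.3 CPM at 2 to 6 h, against 32.4, 33.2 and 29.6 CPM in the first hour, nearly level, and the difference was 1.87 ± 0.13 (adjusted p = 0.00021). Cflar went in opposite directions in the 2 cultures. With the cocktail it had 95.5, 81.6 and 96.4 CPM at 2 to 6 h, against 50.9, 45.8 and 49.0 CPM in the first hour, and without it 27.7, 19.5 and 26.0 CPM at 2 to 6 h, against 40.7, 39.6 and 34.8 CPM in the first hour. Here the difference was 1.57 ± 0.10 (adjusted p = 0.0002). With the cocktail Il2ra, a chain of the interleukin 2 receptor, had 36.3, 59.2 and 51.1 CPM at 2 to 6 h, against 12.9, 11.6 and 10.9 CPM in the first hour. Without it Il2ra had 12.7, 15.8 and 18.5 CPM at 2 to 6 h, against 12.6, 12.1 and 12.0 CPM in the first hour, and the difference was 1.68 ± 0.13 (adjusted p = 0.00035). Spsb1, a SOCS box protein, climbed at 1 h and 2 h with the cocktail, with 20.7, 15.1 and 10.2 CPM at 2 to 6 h, against 0.989, 0.874 and 7.32 CPM in the first hour. Its difference was 2.91 ± 0.54 (adjusted p = 0.012). In the stimulated culture Ahr, the aryl hydrocarbon receptor, had 245, 255 and 122 CPM at 2 to 6 h, against 81.1, 104 and 175 CPM in the first hour. This change did not pass by itself, and the difference was 1.80 ± 0.29 (adjusted p = 0.0072). Gpr183 likewise did not pass in the stimulated culture alone, with 61.9, 27.5 and 9.38 CPM at 2 to 6 h, against 10.05, 10.7 and 19.2 CPM in the first hour. Its difference was 1.64 ± 0.30 (adjusted p = 0.012). Rnf19b, a ubiquitin ligase, had a difference of 1.65 ± 0.43 (adjusted p = 0.036) and Mpzl2, an adhesion molecule, 1.59 ± 0.39 (adjusted p = 0.03). The calls of Rnf19b, Gpr183 and Mpzl2 were lost without 15 min, 30 min or 3 h, that of Spsb1 without 15 min or 3 h, that of Mpzl2 without 1 h and that of Rnf19b without 2 h. Without the time term those of Spsb1, Ahr, Rnf19b, Gpr183 and Mpzl2 were lost.

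Genes whose change was more negative with the cocktail were led by early genes. In the stimulated culture Jun, the partner of Fos, had 9.74, 21.0 and 6.83 CPM at 2 to 6 h, against 12.3, 35.3 and 29.8 CPM in the first hour, and did not pass. In the untreated culture it rose, with 18.3, 30.9 and 7.73 CPM at 2 to 6 h, against 5.77, 4.18 and 3.05 CPM in the first hour. The difference was -3.03 ± 0.50 (adjusted p = 0.0074). Btg2 and Zfp36 had differences of -2.15 ± 0.17 (adjusted p = 0.00045) and -2.22 ± 0.22 (adjusted p = 0.0013), and Fos and Egr1 of -2.26 ± 0.29 (adjusted p = 0.0028) and -1.98 ± 0.33 (adjusted p = 0.0082). Untreated Zfp36 had 11.4, 8.47 and 7.45 CPM at 2 to 6 h, against 22.96, 17.7 and 11.9 CPM in the first hour. Untreated Egr1 had 4.20, 3.41 and 4.02 CPM, against 52.7, 35.1 and 13.1 CPM. For Zfp36, Egr1 and Fos the cultures thus differed more in the first hour than at 2 to 6 h. Btg2 was higher with the cocktail at each first-hour time and lower at each later one, as at 2 h (17.8 against 41.5 CPM). Plk2 without the cocktail had 114, 98.7 and 52.0 CPM at 2 to 6 h, against 308, 379.8 and 271 CPM in the first hour, and the difference was -2.56 ± 0.17 (adjusted p = 0.0002). With the cocktail Prox1, a homeobox gene, had 2.05, 2.63 and 1.20 CPM at 2 to 6 h, against 10.5, 10.5 and 8.88 CPM in the first hour. Without it Prox1 had 6.68, 7.50 and 6.60 CPM at 2 to 6 h, against 8.99, 8.72 and 9.17 CPM in the first hour, and the difference was -1.997 ± 0.22 (adjusted p = 0.0018). Cbfa2t3, a transcriptional corepressor, had 4.76, 2.49 and 10.6 CPM at 2 to 6 h, against 35.5, 29.6 and 23.6 CPM in the first hour in the stimulated culture. Its difference was -1.97 ± 0.25 (adjusted p = 0.0026). Without the time term the calls of Jun, Plk2, Fos, Egr1 and Cbfa2t3 were lost.

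By list, set beside 7.67% above and 5.69% below among all genes, the test of the difference passed for 25 above and 0 below of 38 among ribosome biogenesis genes, 7 above and 0 below of 18 among IL-4 and cytokine signalling genes, 7 above and 1 below of 15 among activation surface molecules and 6 above and 0 below of 16 among NF-kB genes. Immediate early genes had 0 above and 11 below of 28, with 17 of the same list also lower in the untreated culture. Chaperones had 4 above and 1 below of 20, cholesterol synthesis genes 4 above and 1 below of 26 and genes of ER folding 2 above and 2 below of 22. In the untreated culture 14 chaperone genes and 18 cholesterol and fatty acid genes were called higher. The median difference was 0.28 for ribosome biogenesis, -0.83 for immediate early genes, 0.15 for cholesterol synthesis and 0.00 for all genes. The list counts of the difference were not recomputed under the alternatives. There the total of 1582 fell to 351 without 30 min and to 0 with lane. With library totals as the only scaling 555 genes were above 0 and 1005 below.

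**Figure D5:**
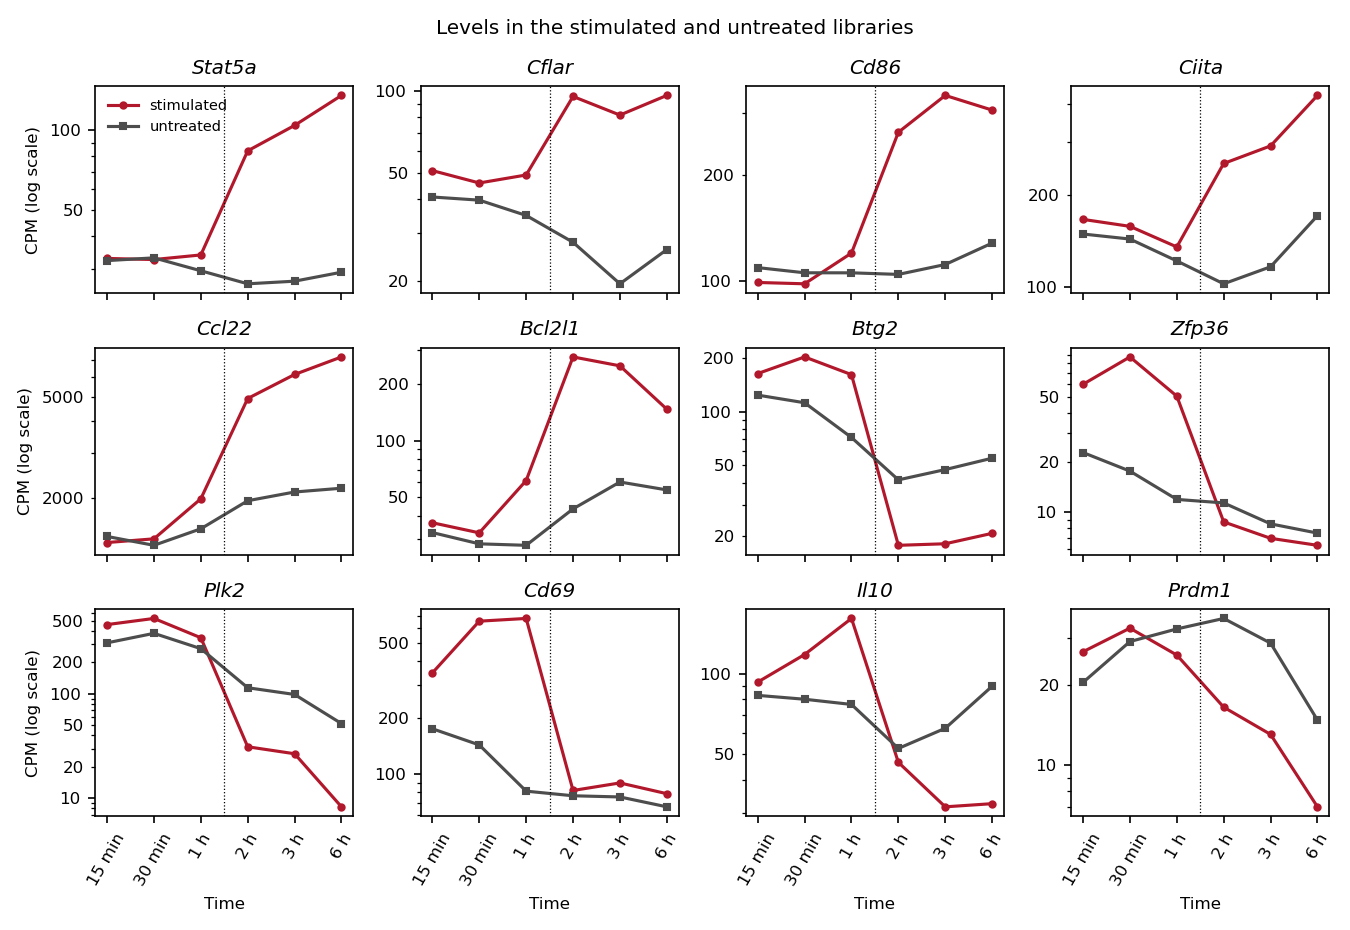
CPM (y axis, log scale) at the 6 times from 15 min to 6 h (x axis) in the stimulated (red) and untreated (grey) culture for 12 genes; the dotted line parts the first hour from 2 to 6 h, and each point is 1 library. The first 6 genes stand higher with the cocktail at 2 h, as Stat5a does with 83.8 stimulated against 26.5 CPM untreated. Bcl2l1 does so already at 1 h (61.4 against 27.9 CPM), and Cflar at each first-hour time. The last 6 drop between 1 h and 2 h with the cocktail, as Plk2 does. It ends at 8.30 stimulated against 52.0 CPM untreated at 6 h.

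Most called genes stayed on the same side of their first-hour level at the later times, while fewer moved further. Among called genes with a mean of at least 5 CPM, 1194 of 2054 higher genes were highest at 6 h, 754 at 3 h and 106 at 2 h. The lower ones (1678) were lowest at 6 h in 855 cases, at 3 h in 663 and at 2 h in 160. Levels climbed at every one of the 6 times for 550 of the higher genes and sank at every one for 341 of the lower. At 12, 24 and 48 h the mean was still above that of the first hour for 1970 of the higher genes and beyond that of 2 to 6 h for 1001, and for 84 it was back below the first hour. Of the lower genes 1563 were still below the first hour, 690 lower than at 2 to 6 h and 115 back above. These counts describe single libraries at each time and carry no test.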

How the data were processed

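Poly-A RNA was sequenced from stimulated and untreated cultures at 10 times each. The deposited values are raw counts per gene, 1 library a table, for which the authors ran STAR and HTSeq, with GRCm38.p3 and mm10 as builds, per the submitters' processing notes; the sources used here give neither versions nor a strand setting. Without a strand setting, reads of overlapping and antisense genes cannot be told apart. Of 41115 genes, those with at least 1 CPM in at least 3 of the fitted libraries were tested with edgeR 4.0.16 (R 4.3.3; quasi-likelihood, TMM factors, Benjamini-Hochberg adjusted p under 0.05), with 2, 3 and 6 h as 1 group and 15 min, 30 min and 1 h as the other. SE is the log2 fold change divided by the square root of F. The difference between cultures was the interaction of culture and window in 12 libraries with a term for each time. It is therefore not the plain difference of the separate fits. Printed CPM use TMM factors over all 20 libraries, which differ by at most 0.613% from those of the 6. Values in brackets after a gene are log2 fold changes, 2 to 6 h over the first hour, unless stated otherwise. Depth is 46731739 to 60918651 counts in the 6 libraries.

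Named are the 12 genes with the largest called change in each direction with windows that do not overlap and a mean of at least 5 CPM, the 8 with the largest called difference in each direction, and up to 4 called members a list. Other members were named for their role, some after their values were seen. Gene lists (754 of 755 entries matched) and members were chosen with earlier results of these data known. Positions are from GENCODE vM21 (GRCm38) and sequences from RefSeq (GRCm38.p6); motifs were searched on both strands. Alternatives were RLE factors, library totals, DESeq2 1.42.0, limma-voom (limma 3.58.1), no or a stricter filter (5 CPM), all 20 libraries in 8 groups, 0 min added, lane 4 only, lane or no time term, and each library or time left out. The tests were tried on simulated data with 200 genes changed, of 11320 in the main test and 11661 in that of the difference. The main test recovered 5 of 67 changes of 1.5-fold (7.46%), 71.2% of those of 2-fold and 96.9% of those of 4-fold. It made 7 false calls among 122, so a small change that did not pass may be real. The test of the difference recovered 64.1%, 88.1% and 98.5%, with 19 false calls among 183, a share above the 0.05 aimed at. In the data 37.1% and 13.4% of genes were called, far more than were changed in the simulations. The recovered shares therefore do not carry over to these data. The submitters' sample sheet was not used. Some genes that these rules select are not reported here.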

Additional observations from a re-analysis of the deposited data

Results flagged for a closer look

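The change from the first hour to 2 to 6 h differed between the stimulated and the untreated culture for 1582 genes in edgeR's quasi-likelihood test of the difference. Of 32 genes named for the size of their change or difference, 22 were among them, 12 with a difference above 0 and 10 below. In log2 units, stimulated minus untreated, those above 0 were Spsb1 (2.91), Stat5a (1.87), Ahr (1.80), Il2ra (1.68), Rnf19b (1.65), Gpr183 (1.64), Mpzl2 (1.59), Cflar (1.57), Bcl2l1 (1.54), Hoxd4 (1.08), Gja1 (0.80) and Efnb1 (0.52). Those below 0 were Osgin1 (-0.64), Chac1 (-1.42), Cbfa2t3 (-1.97), Egr1 (-1.98), Prox1 (-1.997), Btg2 (-2.15), Zfp36 (-2.22), Fos (-2.26), Plk2 (-2.56) and Jun (-3.03). Bcl2l1, Hoxd4, Gja1, Efnb1, Osgin1 and Chac1 are on this list through the size of their change in the stimulated culture. The others were named for their difference, which required passing this same test, so their presence here was fixed in advance. Each culture came from 1 animal, so treatment and animal cannot be told apart. Lane cannot be fully told apart either, since lane 4 held all stimulated libraries at 2 to 6 h and no untreated one. Groups of 3 libraries were not searched for samples that stand apart.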

How the results depend on the processing

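In the stimulated culture the total of 4243 genes called at 2 to 6 h against the first hour lay between 3790 and 5687 with other scaling, filters or tests, with all 20 libraries or with 0 min added. Within lane 4 it was 2, with 0 higher and 2 lower. Leaving out 1 library gave 686 to 5754 genes, 326 to 2853 higher and 360 to 2901 lower, lowest without 30 min and highest without 6 h. For the difference from the untreated culture (1582, of which 908 above 0 and 674 below), library totals gave 555 above 0 and no filter gave 1019 below 0. Without the time term 31 genes were called, 18 above 0 and 13 below. With lane as a term the counts were 0, 0 and 0. Leaving out 1 time gave 351 to 1964 genes, 200 to 1066 above 0 and 151 to 898 below. The fits on fewer libraries have fewer samples to estimate the spread. None of the 4243 genes changed direction where they had a value, nor did the 16 genes named for their difference. Both sets were chosen in the libraries that the alternatives reuse, so this was largely built in. Directions of the rest of the 1582 were not compared. Of 91 list members taken as examples, 29 lost their call without 15 min, 48 without 30 min, 12 without 1 h, 3 without 2 h, 23 without 3 h and 0 without 6 h, and 89 of 90 within lane 4. No replicate number stands in the labels, and the cultures were paired by time only, through the time term of the test of the difference.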

Other observations

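Clock genes fell in part between the first hour and 2 to 6 h: 1 of 16 members tested were called higher, 7 lower and 8 did not pass, with a median log2 fold change of -0.61. Per1, a repressor of the clock, had 19.4, 22.7 and 28.2 CPM at 2 to 6 h, against 100.3, 118 and 109 CPM in the first hour (log2 fold change -2.22 ± 0.16, adjusted p = 0.0038). Rora, a nuclear receptor that drives clock genes, was 7.05-fold lower, Per2 2.41-fold lower and Bhlhe40 2.38-fold lower, while Cry1 was 1.58-fold higher. Without 30 min 3 members were called lower and 0 higher. In the untreated culture 8 were lower, and the difference between cultures passed for 3, Per1, Per2 and Bhlhe41, all below 0. For p53 targets 3 of 16 members tested were called higher (18.8%), 6 lower (37.5%) and 7 did not pass. The higher share was near the 19.2% of all genes. The inhibitor gene Mdm2 (-0.72), Sesn2 (-2.34), Trp53inp1 (-2.04) and Plk2 were lower, and Trp53 itself was 1.45-fold higher. The 3 higher calls there numbered 1 without 15 min, 0 without 30 min and 1 without 3 h.

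Of 25 interferon stimulated genes listed, 13 did not pass the filter. Of the 12 tested 2 were called higher (16.7%), 2 lower (16.7%) and 8 did not pass. Both shares were near the 19.2% and 17.9% of all genes. The 2 lower calls of that list numbered 0 without 15 min, 0 without 30 min, 1 without 1 h, 4 without 2 h and 0 without 3 h. For antigen presentation 13 of 18 members listed did not pass the filter. Of the 5 tested 1 was called higher (20%, against 19.2% of all genes), 0 lower and 4 did not pass. The call was Ciita, lost without 30 min, while Cd74, the invariant chain, had 2528, 2446 and 2464 CPM at 2 to 6 h, against 2269.7, 2351 and 2477 CPM in the first hour and did not pass (adjusted p = 0.41). The class II genes H2-Aa and H2-Ab1 are listed at 5 and 3 counts summed over the 6 libraries. Among RGS and G protein genes 1 of 12 members tested were called higher (8.33%), 3 lower (25%, against 17.9% of all genes) and 8 did not pass. Rgs16, which ends G protein signals, had 10.1, 10.3 and 2.66 CPM at 2 to 6 h, against 0.263, 1.08 and 3.42 CPM in the first hour and did not pass (adjusted p = 0.081), while its difference from the untreated culture was called. The 3 lower calls there numbered 1 without 15 min and 0 without 30 min, and the 1 higher call 0 without 15 min, 0 without 30 min, 0 without 3 h and 2 without 6 h.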
